A study of Homo sapiens with 8 samples.

Results

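The mRNA of 9 chemokine and cytokine genes was read in HepG2 cells, an established line of human hepatocellular carcinoma. The genes are CXCL8, CXCL1, CXCL2, CXCL3, and CXCL5, which attract neutrophils, CCL20, which attracts lymphocytes and dendritic cells, and CSF1, LIF, and IL11, which act as growth and differentiation factors. All 9 of the 9 symbols had a row among the 60230 genes of the count table. The genes were chosen with the differences from DMSO in these same samples known, so their values against DMSO are a description and no p-value is given for them. P-values between compounds come from these same samples and are not independent of that choice.

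The cells were a HepG2 derivative that overexpresses CYP3A4, a cytochrome P450 of drug metabolism, and all 4 groups carried it. Control cells received DMSO, and the other groups received compound 4 (metylcresol in the labels), compound 5 (tetrabut), or compound 6 (cyclohexil), each at its own IC50 concentration, for 24 h. The 3 compounds are bisphenol antioxidants. Compounds 4 and 6 differ in the ring substituent, a tert-butyl group in 4 and a cyclohexyl group in 6, whereas compound 5 carries more tert-butyl groups and a different bridge between its rings. Each group held 2 replicates, labelled day 1 and day 2, and p-values therefore measure the spread between pairs of samples. By their headers, replicate 1 of compound 4 and of compound 5 were each merged from a pair of numbered sets, whose nature is not given in the sources used here. A single line in culture has no immune cells to receive these signals, and the concentrations were not matched between compounds.

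Chemokines are small secreted proteins that direct the movement of leukocytes. The neutrophil chemokines bind CXCR1 and CXCR2, CCL20 binds CCR6, and CSF1, the growth factor of macrophages, binds CSF1R. LIF and IL11 belong to the IL-6 family, whose receptors share the subunit gp130, encoded by IL6ST, and signal through Janus kinases and STAT3. In the liver these genes are typically induced through NF-κB and AP-1, and many of their mRNAs are unstable because of AU-rich elements in the 3′ UTR.

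The 5 neutrophil chemokine genes lie together on chromosome 4 (GRCh38): CXCL8 at chr4:73740506-73743716, CXCL1 at chr4:73869393-73871242, CXCL5 at chr4:73995642-73998779, CXCL3 at chr4:74036589-74038807, and CXCL2 at chr4:74097035-74099293. CCL20 is at chr2:227805739-227817564, CSF1 at chr1:109910242-109930992, LIF at chr22:30240447-30246851, and IL11 at chr19:55364389-55370463. All are protein coding. No other annotated gene overlapped them except the antisense genes LIF-AS1 and LIF-AS2 at LIF, which held at most 7 counts in a library.

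The sequences just upstream of the start sites are shown because the 5 neutrophil chemokines hold the same short NF-κB-type element. Over the 8 libraries CXCL8 held 380 counts, against 1 for CXCL1, 10 for CXCL2, 1 for CXCL3, and 0 for CXCL5. The part of the element in these levels was not tested. The 150 bases before the RefSeq start (GRCh38.p14) are given 5′ to 3′ on the gene's own strand for the 7 of 9 genes with an entry, which excludes CSF1 and LIF. Capitals mark the matches to the NF-κB consensus, to its 9-base core GGAATTTCC, which can lie within a consensus match, and to the AP-1 motif TGANTCA. The GENCODE 29 models of CXCL8, CXCL2, CXCL3, CXCL5, and CCL20 begin further upstream than the RefSeq starts.
CXCL8, chr4:73740419-73740568, plus strand: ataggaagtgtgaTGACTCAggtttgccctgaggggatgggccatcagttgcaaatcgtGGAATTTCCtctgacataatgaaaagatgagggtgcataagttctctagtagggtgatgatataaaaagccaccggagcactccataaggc
CXCL1, chr4:73869243-73869392, plus strand: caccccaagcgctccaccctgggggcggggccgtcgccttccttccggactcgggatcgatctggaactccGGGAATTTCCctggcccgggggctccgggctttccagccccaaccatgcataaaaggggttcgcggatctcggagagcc
CXCL2, chr4:74099196-74099345, minus strand: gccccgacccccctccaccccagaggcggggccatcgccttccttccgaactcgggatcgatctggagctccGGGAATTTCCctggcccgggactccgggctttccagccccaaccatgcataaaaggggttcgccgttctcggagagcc
CXCL3, chr4:74038690-74038839, minus strand: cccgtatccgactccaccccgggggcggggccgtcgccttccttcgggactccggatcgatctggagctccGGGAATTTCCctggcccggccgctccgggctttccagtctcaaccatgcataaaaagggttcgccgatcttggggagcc
CXCL5, chr4:73998678-73998827, minus strand: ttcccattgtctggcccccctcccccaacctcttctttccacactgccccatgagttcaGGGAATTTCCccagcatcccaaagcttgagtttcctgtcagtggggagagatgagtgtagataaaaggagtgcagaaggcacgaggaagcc
CCL20, chr2:227813692-227813841, plus strand: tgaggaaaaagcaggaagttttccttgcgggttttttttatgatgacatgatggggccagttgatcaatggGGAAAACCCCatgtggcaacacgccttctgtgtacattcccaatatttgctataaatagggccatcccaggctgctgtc
IL11, chr19:55370464-55370613, minus strand: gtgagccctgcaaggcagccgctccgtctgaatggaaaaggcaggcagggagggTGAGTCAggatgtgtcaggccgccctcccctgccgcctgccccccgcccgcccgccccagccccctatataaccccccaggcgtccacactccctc

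The core GGAATTTCC was present in all 5 neutrophil chemokines, between position -91 and position -69 from the start, and in 0.41% of 35116 RefSeq promoters. In CXCL1, CXCL2, CXCL3, and CXCL5 it was preceded by a further G and lay within a match to the NF-κB consensus, which 6.88% of promoters contained. CXCL8 had the core alone, from -91 to -83. The consensus match of CCL20, from -79 to -70, had other letters. The AP-1 motif was found in CXCL8 from -137 to -131 and in IL11 from -96 to -90, against 6.57% of promoters. Searches covered both strands of the 250 bases before the start, and a match describes letters, not binding.

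The 8 libraries held between 9472261 and 13308975 counts on genes, so that 3 counts, taken as the detection floor of a library, corresponded to between 0.234 and 0.312 CPM (counts scaled by TMM to the library total). Floors and counting intervals cover counting error only. CYP3A4 measured 197.9 and 206.3 CPM with DMSO and 286.9 and 215.4 CPM under compound 4. It measured 370.4 and 420.6 CPM under compound 5 and 170.3 and 170.4 CPM under compound 6. The part of its level in the results was not tested. The 10 hepatic markers were present in every library, at 39550 to 41360 CPM in sum with DMSO and 30930 to 37870 CPM with the compounds. Of 10 macrophage markers 6 were at 0 in all libraries, including PTPRC, CD163, and CSF1R, and the sum of 1854 to 2990 CPM was nearly all LYZ. Of 8 neutrophil markers 6 were at 0, and the list summed to 3.30 to 9.05 CPM. Endothelial markers summed to 0.863 to 2.06 CPM with 4 of 7 at 0, and stellate cell and fibroblast markers to 11.1 to 22.6 CPM with 3 of 8 at 0. Some single markers moved, among them CD14, at 1 to 16 counts, higher by 2.94 on the log2 scale under compound 4 and 2.75 under compound 6, and PDGFRB, higher by 1.80 under compound 4. Under compound 5 the log2 fold change was -1.33 for CSF3R, -1.20 for ACTA2, and -0.47 for LYZ. AFP was called lower under compounds 4 and 5, TF and APOA1 under all 3, and TTR higher under compound 4. The part of these changes in the results was not tested.

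By level, the 9 genes were 1 abundant chemokine, 1 moderate cytokine, and 7 genes that were scarce or at the floor. Per kilobase of exon, CCL20 took 87.9% of the summed CPM of the 9 genes in DMSO, 93.4% under compound 4, 94.8% under compound 5, and 89.7% under compound 6. Its mean level in DMSO, 82.1 CPM per kilobase, ranked 408th of 57972 genes, and under compound 5 it was 455 CPM per kilobase and ranked 73rd. LIF followed, at 10.3 CPM per kilobase in DMSO and 16.7 under compound 5. CSF1 lay between 0.678 CPM per kilobase in DMSO and 2.69 under compound 4. CXCL8 lay between 0.213 CPM per kilobase in DMSO and 5.48 under compound 5, where it stood above CSF1 at 2.25. IL11 did not exceed 0.519 CPM per kilobase in any group mean.

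The name of these genes as products of HepG2 did not hold for 4 of them. CXCL1, CXCL2, CXCL3, and CXCL5 together received 12 counts over the 8 libraries. CXCL5 had 0 counts in every library, for which the exact Poisson 95% upper limit is 3.69 counts in each. CXCL1 had 1 count, in replicate 1 of compound 6, and CXCL3 had 1 count, in replicate 2 of compound 4. CXCL2 had 3 and 1 counts in the DMSO replicates, 2 and 4 under compound 5, and 0 in the 4 libraries of compounds 4 and 6. The highest of these values, 4 counts, had an exact Poisson 95% interval of 1.09 to 10.2 counts, so no difference between groups was detectable for these genes and no fold is given. They did not pass the filter on low counts and were not tested in the main fit. Without that filter CXCL1, CXCL2, and CXCL3 were fitted, and no difference passed the cutoff.

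CXCL1, CXCL2, and CXCL3 are near copies of each other, and a quantifier may divide their reads. Of their possible 31-base words, 14.4%, 22.4%, and 9.54% also occurred in transcripts of another gene, and their counts summed to the same 12. CXCL5 shared 5.02%, with CXCL6 and GLYR1. CXCL8, CCL20, and LIF shared 0%, and CSF1 0.04%. IL11 shared 5.95%, with several other genes, among them AAK1, ABCA8, and ABCB5. Whether any of its few counts came from them was not tested.

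**Figure D1:**
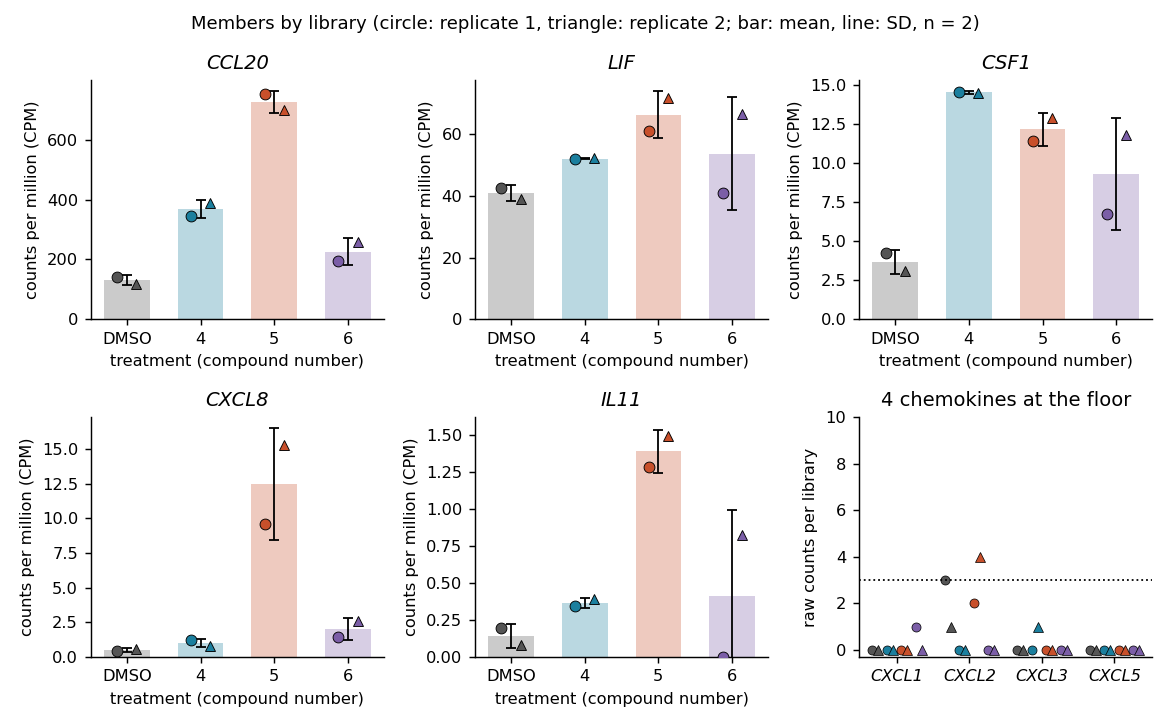
Level of the genes in each library, as CPM for 5 genes and as raw counts for CXCL1, CXCL2, CXCL3, and CXCL5 (the dotted line marks the floor of 3 counts). Points are libraries, bars are group means and lines are the SD of 2 replicates, cut at 0 for IL11. CCL20 separates the 4 groups without overlap, CXCL8 is highest under compound 5, and LIF and CSF1 spread widely between the replicates of compound 6.

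CXCL8, the main neutrophil chemokine of human cells, was scarce in control cells and was highest under compound 5. It measured 0.393 and 0.575 CPM in the DMSO replicates, from 4 and 7 counts with Poisson intervals of 1.09 to 10.2 and 2.81 to 14.4. With compound 4 it measured 1.20 and 0.779 CPM (14 and 10 counts), and under compound 6 1.46 and 2.55 CPM (14 and 31 counts). With compound 5 it measured 9.62 and 15.3 CPM, from 105 and 195 counts. The groups did not overlap, the libraries of compound 5 lay far above all others, and those of DMSO were near the floor. The log2 fold change against DMSO was 4.64 (SE 0.42) under compound 5, 0.98 (SE 0.57) under compound 4, and 2.03 (SE 0.51) under compound 6.

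Against the other compounds, CXCL8 was higher under compound 5 by 3.66 on the log2 scale (SE 0.37, 95% interval 2.84 to 4.47, edgeR adjusted p = 0.00211) than under compound 4, and by 2.61 (SE 0.34, interval 1.86 to 3.35, edgeR adjusted p = 0.00271) than under compound 6. The difference between compounds 4 and 6 did not pass, at -1.05 (interval -2.03 to -0.08, edgeR adjusted p = 0.488). Both sides of the comparisons of compound 5 were above 3 counts in every library.

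CCL20, the ligand of CCR6, had the highest counts of the 9 genes in every library. It measured 143 and 119 CPM in control cells, from 1454 and 1445 counts. It measured 346 and 389 CPM under compound 4, 751 and 700.0 CPM under compound 5, and 194 and 258 CPM under compound 6. No 2 groups overlapped, and the order from low to high was DMSO, compound 6, compound 4, and compound 5. The fold change against DMSO was 2.81 under compound 4 (log2 1.49, SE 0.15), 5.55 under compound 5 (log2 2.47, SE 0.15), and 1.73 under compound 6 (log2 0.79, SE 0.15).

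Compound 5 exceeded compound 4 in CCL20 by 0.98 on the log2 scale (SE 0.14, interval 0.66 to 1.30, edgeR adjusted p = 0.00555), although without replicate 1 of compound 5 this value was 0.95 with an edgeR adjusted p of 0.0536. It exceeded compound 6 by 1.68 (SE 0.15, interval 1.36 to 2.01, edgeR adjusted p = 3.39e-04). Compounds 4 and 6, which differ in the tert-butyl and cyclohexyl groups, differed by 0.70 (interval 0.38 to 1.02). This did not pass in edgeR (adjusted p = 0.173) and did pass in DESeq2 (adjusted p = 0.00107), and it also passed in edgeR without the filter on low counts (adjusted p = 5.02e-06) and without replicate 1 of compound 4 (edgeR adjusted p = 0.0481).

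CSF1 was higher in the treated cells, and no pair of compounds differed past the cutoff. It measured 4.23 and 3.12 CPM in control cells, from 43 and 38 counts, and 14.6 and 14.5 CPM under compound 4. It measured 11.4 and 12.9 CPM under compound 5 and 6.77 and 11.8 CPM under compound 6. All 6 treated libraries lay above both DMSO libraries, and replicate 2 of compound 6 lay within the range of compound 5. The log2 fold change against DMSO was 1.99 (SE 0.26) under compound 4, 1.74 (SE 0.26) under compound 5, and 1.37 (SE 0.27) under compound 6. The difference of compound 5 from compound 4 was -0.25 (interval -0.75 to 0.24, edgeR adjusted p = 0.462) and from compound 6 0.37 (interval -0.15 to 0.89, edgeR adjusted p = 0.337). Compounds 4 and 6 differed by 0.63 (interval 0.11 to 1.14, edgeR adjusted p = 0.452). Without replicate 1 of compound 6 the differences of compounds 4 and 5 from it were 0.28 and 0.04, and without replicate 2 they were 1.10 and 0.87, none of them called. The intervals reach differences of up to 1.14 on the log2 scale.

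LIF, a cytokine of the IL-6 family, was present in every library and had the lowest fold changes against DMSO of the 5 genes fitted. It measured 42.6 and 39.0 CPM in control cells, 51.9 and 52.1 CPM under compound 4, 60.8 and 71.5 CPM under compound 5, and 40.7 and 66.5 CPM under compound 6. The libraries of compounds 4 and 5 lay above both DMSO libraries, while replicate 1 of compound 6 lay between them. The log2 fold change against DMSO was 0.35 (SE 0.19) under compound 4, 0.70 (SE 0.19) under compound 5, and 0.40 (SE 0.19) under compound 6. No pair of compounds differed past the cutoff, with 0.35 (interval -0.06 to 0.76, edgeR adjusted p = 0.222) between compounds 5 and 4 and 0.30 (interval -0.12 to 0.71, edgeR adjusted p = 0.335) between compounds 5 and 6. Between compounds 4 and 6 the difference was -0.05 (interval -0.47 to 0.37, edgeR adjusted p = 0.952).

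IL11, the other member of the IL-6 family, was near the floor in control cells and under compound 4, where both libraries held fewer than 10 counts. Its counts were 2 and 1 in control cells, 4 and 5 for compound 4, 14 and 19 for compound 5, and 0 and 10 for compound 6. Only the libraries of compound 5 exceeded 10 counts, and IL11 passed the filter on low counts through them. They corresponded to 1.28 and 1.49 CPM. Since DMSO was at or under the floor, the fitted log2 fold change of 3.27 (SE 0.97) for compound 5 depends on the few counts of DMSO. IL11 was high in the group that carried it through the filter, so its differences between compounds are a description, with no test. They were 1.89 (interval 0.15 to 3.63) between compounds 5 and 4, 1.61 (interval -0.10 to 3.33) between compounds 5 and 6, and -0.28 (interval -2.36 to 1.80) between compounds 4 and 6. The replicates of compound 6, at 0 and 10 counts, set the last 2 values. Without replicate 1 they were 0.75 and -1.16, and without replicate 2 they were 7.02 and 5.11.

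**Figure D2:**
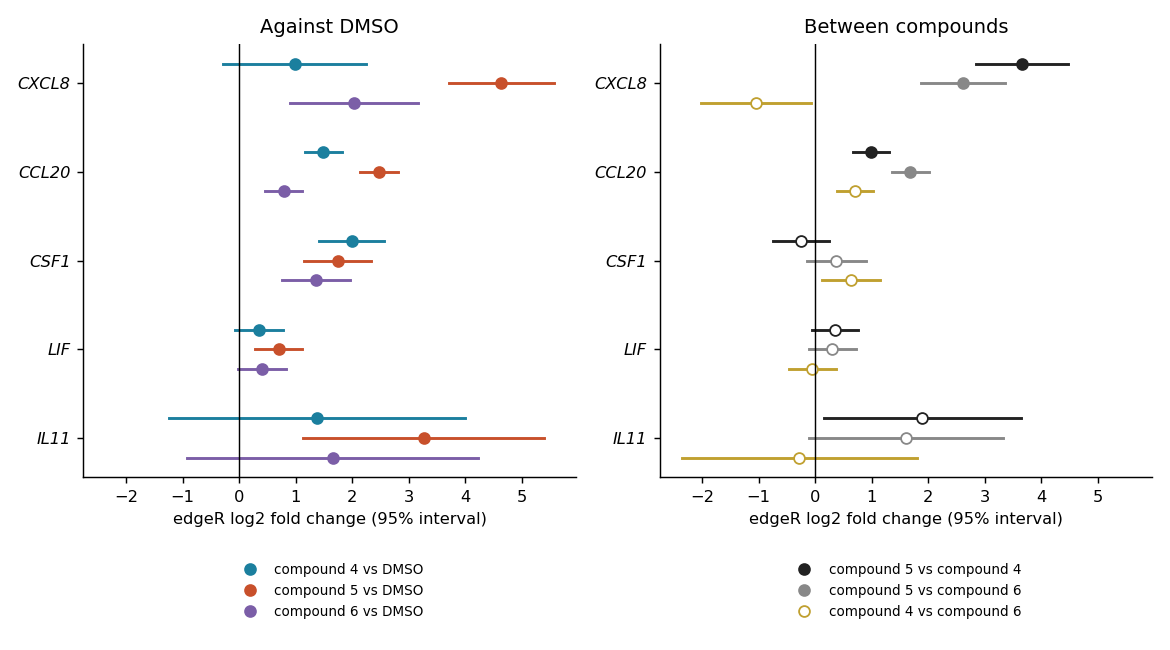
Log2 fold changes from edgeR with 95% intervals for the 5 genes above the filter, against DMSO (left, a description with no test) and between compounds (right, filled points at an adjusted p under 0.05, IL11 a description only). CXCL8 and CCL20 are higher under compound 5 than with either other compound, at 3.66 and 0.98 over compound 4 and 2.61 and 1.68 over compound 6, and the intervals of IL11 are the widest.

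Counted over the 5 genes tested, 2 (CCL20 and CSF1) were called higher than DMSO under compound 4, 5 under compound 5, and 2 (CCL20 and CSF1) under compound 6, and 0 were called lower. Among all 13404 genes tested, 6.5% were called higher and 5.42% lower under compound 4, 13.9% and 14.2% under compound 5, and 2.8% and 1.6% under compound 6. The genes were chosen from this contrast and the 3 comparisons share the DMSO libraries, so nothing is read from these counts. Leaving out 1 library removed several of these calls, mostly at similar fold changes. Neither call of compound 6 remained without replicate 1 of DMSO (log2 0.93 for CCL20 and 1.59 for CSF1), replicate 2 of DMSO (0.66 and 1.15), or replicate 2 of compound 6 (0.58 and 0.90). The call of LIF under compound 5 was lost without either DMSO replicate (0.76 and 0.66) or replicate 2 of compound 5 (0.58), and that of IL11 without any 1 of the 4 libraries compared (2.78 to 3.92), and DESeq2 gave IL11 no adjusted p (log2 3.37, SE 1.41). The labels name the replicate number a day, and with it as a block CXCL8 under compound 6 was also called (log2 2.03, SE 0.47). It was called too by DESeq2, with upper-quartile scaling, without the filter, and in the fit of only these groups.

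Between compounds, 12 values were tested, those of CXCL8, CCL20, CSF1, and LIF in 3 pairs, with p-values adjusted over all genes. Compound 5 was higher than compound 4 in 2 of 4 genes, where 6.91% of all genes were called higher, and higher than compound 6 in 2 of 4, where 4.76% were. The 2 were CXCL8 and CCL20 in both pairs. Between compounds 4 and 6 edgeR called 0 of 4, where 0.0448% of all genes were called in either direction. An unadjusted p under 0.05 was found for 3 of the 4 and for 1315 of the 13404 genes. DESeq2 called 1, CCL20. Each pair of these comparisons shares the libraries of a compound, and each compound was given at its own concentration. The genes were chosen with values of these same libraries known, so the p-values are not independent of that choice.

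The replicates of compound 6 stood apart in these genes. Replicate 2 was above replicate 1 in all 5 tested genes, by 0.74 on the log2 scale for CXCL8, 0.41 for CCL20, 0.79 for CSF1, 0.70 for LIF, and 2.52 for IL11. Among all genes tested the SD of this gap was 0.442. A gap at least as large in the same direction was found in 3.33% of genes for CXCL8, 9.71% for CCL20, 2.89% for CSF1, and 3.72% for LIF. For IL11, at few counts, the share was 0.239%. For CXCL8 the gap was about as unusual under compound 5, at 0.66, which 3.06% of genes reached in the same direction. Without replicate 1 of compound 6, LIF under compound 6 measured 0.73 above DMSO on the log2 scale, against 0.0074 without replicate 2. Without replicate 1 its difference from compound 5 was -0.01. Without replicate 2 of compound 6, LIF was higher under compound 5 than under compound 6 by 0.72 (edgeR adjusted p = 0.023). In bulk RNA, a higher level in every cell cannot be told apart from more cells that express the gene.

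Among the receptors of these ligands, that of the most abundant ligand was expressed in these cells. CCR6, the receptor of CCL20, measured 23.9 and 24.3 CPM in control cells, 54.5 and 55.9 CPM under compound 4, 64.9 and 63.4 CPM under compound 5, and 30.2 and 31.9 CPM under compound 6. The replicates were close to each other and the groups did not overlap, in the same order as for CCL20. CCR6 was higher than DMSO by 1.19 on the log2 scale under compound 4 (SE 0.11, edgeR adjusted p = 3.36e-04) and by 1.41 under compound 5 (SE 0.11, edgeR adjusted p = 5.75e-05), and under compound 6 by 0.37, which did not pass (edgeR adjusted p = 0.0835). It was higher than under compound 6 by 0.83 under compound 4 (SE 0.10, edgeR adjusted p = 0.0368) and by 1.04 under compound 5 (SE 0.10, edgeR adjusted p = 7.56e-04). Between compounds 5 and 4 the difference was 0.22 (interval -0.0054 to 0.44) and did not pass (edgeR adjusted p = 0.165). The receptors were listed with earlier results of these data known, so these p-values are not independent of that choice.

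CXCR1, CXCR2, and CSF1R, the receptors of the neutrophil chemokines and of CSF1, had 0 counts in every library, as did the scavenging receptors ACKR1 and ACKR3. ACKR2, which binds inflammatory CC chemokines, had between 4 and 13 counts and was not called. LIFR, the receptor chain for LIF, measured between 18.6 and 31.9 CPM and IL6ST between 160.1 and 239 CPM, and neither was called with any compound. IL11RA, the receptor chain for IL11, had between 2 and 7 counts, so the chain that IL11 requires was near the floor in every library. Of the 10 receptors listed, 4 passed the filter, and 1 of these, CCR6, was called higher under compounds 4 and 5, where 6.5% and 13.9% of all genes were.

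**Figure D3:**
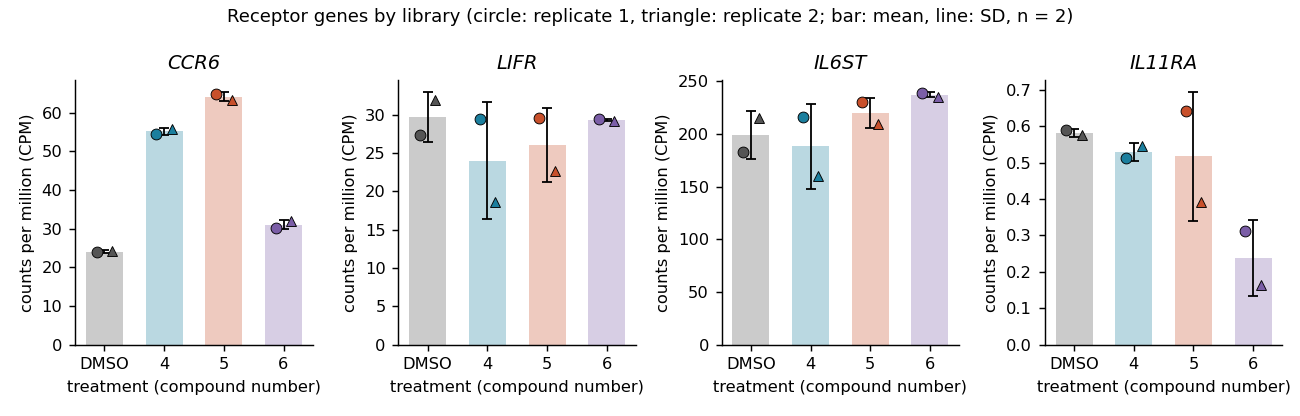
CPM of 4 receptor genes by library, with group means as bars and the SD of 2 replicates as lines. CCR6 rises from 23.9 and 24.3 CPM in control cells to over 54 CPM under compounds 4 and 5, while LIFR overlaps between groups, IL6ST is highest under compound 6 at 239 and 236 CPM, and IL11RA stays under 0.65 CPM.

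Most other chemokine genes were at or under the floor in these cells. Of 38 further chemokine genes, 25 had 0 counts in all libraries, 32 never exceeded 3 counts, and 4 reached a mean of 10 CPM. Of 6 tested, 2 were called higher under compound 4 (CXCL16 and CCL15), 2 higher and 1 lower under compound 5, and 1 higher under compound 6, with median log2 fold changes of 0.45, 0.01, and -0.12 against medians of 9.88e-05, -0.03, and 0.0028 over all genes. Over all genes, 6.5%, 13.9%, and 2.8% were higher and 5.42%, 14.2%, and 1.6% lower. The call under compound 6, CXCL16, was lost under upper-quartile scaling, library size alone, and the replicate block. CXCL16, a membrane-bound ligand of CXCR6, measured 295 and 263 CPM in control cells and 459 and 454 CPM under compound 4, and rose by 0.71 on the log2 scale (SE 0.11). CCL15, a CC chemokine of liver and gut, rose by 1.15 (SE 0.19) under compound 4 and 1.31 (SE 0.19) under compound 5. CX3CL1, the ligand of CX3CR1, fell by 0.60 on the log2 scale (SE 0.13) under compound 5.

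Of 40 further cytokine genes, 13 had 0 counts in all libraries, 22 never exceeded 3 counts, and 13 were tested. With compound 4, 2 were called higher and 2 lower, under compound 5, 3 and 2, and under compound 6, 1 and 0, with median log2 fold changes of 0.38, -0.0044, and 0.07. The shares of all genes called higher were 6.5%, 13.9%, and 2.8%, and lower 5.42%, 14.2%, and 1.6%. With library size alone, 1 cytokine gene was called higher under compound 4. CLCF1, which like LIF and IL11 is a member of the IL-6 family, had 4 and 7 counts in DMSO, 19 and 36 under compound 4, 52 and 105 under compound 5, and 9 and 33 under compound 6. It rose by 2.16 (SE 0.62, edgeR adjusted p = 0.0481) under compound 4 and by 3.71 (SE 0.56, edgeR adjusted p = 0.00114) under compound 5. The cytokine list was written with earlier results of these data known, so these p-values are not independent of that choice. TNFSF10, the death ligand TRAIL, fell under compounds 4 and 5, with log2 fold changes of -1.61 (SE 0.32) and -2.10 (SE 0.34). KITLG, the ligand of the receptor KIT, fell with the same compounds, at -0.85 (SE 0.18) and -1.04 (SE 0.18). TNFSF9, the ligand of 4-1BB, rose by 0.91 (SE 0.26) under compound 5. TGFB1, named after its values were seen, was called higher under all 3 compounds, at 0.81 (SE 0.13), 0.83 (SE 0.13), and 0.63 (SE 0.13).

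Genes of the pathways that typically induce these ligands moved as follows. Of 18 NF-κB subunit and feedback genes tested, 4 were called higher and 1 lower under compound 4, 6 and 1 under compound 5, and 2 and 0 under compound 6, with median log2 fold changes of 0.17, 0.21, and 0.13. Of all genes, 6.5%, 13.9%, and 2.8% were called higher and 5.42%, 14.2%, and 1.6% lower. Under upper-quartile scaling the NF-κB counts for compound 5 were 3 higher and 2 lower. Of 10 AP-1 and immediate early genes, 3, 8, and 1 were called higher and 0 lower, with medians of 0.40, 1.39, and 0.29. The largest changes among the called genes of these lists were IER3, ICAM1, BIRC3, and RELB in the former, and EGR1, ATF3, FOSB, and MAFF in the latter. With compound 5, IER3 rose by 2.12 (SE 0.14), ICAM1 by 1.14 (SE 0.11), and RELB by 0.78 (SE 0.23), and BIRC3 fell by 1.44 (SE 0.25). EGR1 rose by 4.11 (SE 0.35), ATF3 by 1.82 (SE 0.27), FOSB by 1.59 (SE 0.29), and MAFF by 1.57 (SE 0.19).

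Likeness of pattern was described by Pearson's r of log2 CPM over the 8 libraries, over 12693 genes whose mean reached 1 CPM. The genes most like CXCL8 were SH3D19 (r = 0.993), CC2D1A (0.990), ULK1 (0.989), FRMD4B (0.988), and KLC1 (0.987), and 459 genes had an r over 0.9. Genes most like CSF1 were FHL3 (0.986), WDR13 (0.985), TMEM140 (0.979), and SH2D5 (0.979), and 298 had an r over 0.9. The 8 points are 4 pairs of replicates that share their treatment, so these values are a description.

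The 3′ UTR is the other element that these genes are known to share. Counted in the annotated 3′ UTR, the pentamer AUUUA occurred at a median of 1.41 per kilobase over 18940 genes. It occurred at 13.9 per kilobase in CXCL2, 10.4 in CXCL3, 7.19 in CXCL8, 7.08 in CXCL1, 6.65 in CCL20, 5.56 in IL11, and 5.51 in CXCL5, densities that 0.7% (CXCL2) to 7.85% (CXCL5) of genes reached. LIF, at 2.18, and CSF1, at 1.86, were closer to the median of all genes by density. By number of pentamers LIF, with 7 in a longer 3′ UTR, exceeded CCL20, with 3. CXCL2 and CXCL3, with the highest densities, were at the floor, and CCL20, the most abundant of the 9, lay between CXCL1 and IL11 in density.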

How the data were processed

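RNA from 8 samples of HepG2 cells that overexpress CYP3A4 was read from a single deposited table. Its values are estimated counts per gene, which the authors obtained with Salmon 1.5.0 on the GENCODE 38 transcriptome and summed to genes, deposited as whole numbers without scaling. Genes carry Ensembl identifiers, and 60089 of 60230 received a symbol. Lengths, 3′ UTRs, and positions are from GENCODE 29 on GRCh38, and promoters from RefSeq. The reference release thus differs from that of the authors.

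The fit used edgeR 4.0.16 (R 4.3.3), which estimates spread through limma 3.58.1. After TMM scaling and filterByExpr, 13404 genes were fitted with the 4 groups of 8 samples by the quasi-likelihood F-test, with Benjamini-Hochberg adjustment over all of them and a cutoff of 0.05. Alternatives were DESeq2 1.42.0, RLE, upper-quartile and library-size scaling, no filter, a minimum of 10 counts per sample, a replicate block, only the groups compared, a cutoff of 0.01, summed CXCL1, CXCL2, and CXCL3, and leaving out each sample. The scripts were tested on simulated data. With 2 samples against 2, an exact permutation test cannot fall below a two-sided p of 0.333, and none was used.

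The genes and the lists beside them were chosen with earlier results of these data known. From each list, up to 4 called genes with the largest change and a mean of at least 1 CPM are named. The replicate numbers are the days of the labels. The correlation of deviations between samples with the same number ranged from -0.083 to 0.16. A gene that the rule on likeness of pattern selects is not reported here.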

Additional observations from a re-analysis of the deposited data

How the results depend on the processing

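Over settings that kept all samples, 246 of 254 fold changes of the 5 tested genes kept their direction and their side of the cutoff, and none reversed among them. The setting that summed CXCL1, CXCL2, and CXCL3 repeated the main values of the 5 genes. Its entries among the 246 were therefore fixed in advance. With at least 10 counts in every sample, which removes CXCL8 and IL11, the genes called fell from 5 to 3 for compound 5 against DMSO and from 2 to 1 for compound 5 against each other compound. At a cutoff of 0.01 the calls were 3 with compound 5 and 0 with compound 6. Between compounds 4 and 6, DESeq2 and the fit without a filter each called 1 gene. Leaving out 1 library changed the number of calls in every comparison except compound 4 against DMSO. These calls include IL11, which is a description only, so nothing is read from their number. Among these fits, the uncalled values of IL11 for compound 6 against DMSO (-3.73) and for compound 4 against compound 6 (5.11), and of LIF for compound 4 against compound 6 (0.35), turned in direction without replicate 2 of compound 6, as did LIF for compound 5 against compound 6 (-0.0077) without replicate 1. These fits assume that a lone sample varies like the other groups. With the replicate block, CXCL8 with compound 6 was called (log2 2.03), and no other call of the 5 genes changed. Of 252 counts over the gene lists, 228 stayed within 1.5 times. Depth limits CXCL1, CXCL2, CXCL3, CXCL5, and IL11, whose counts stayed under 20 in every library.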

Other observations

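Further groups of genes were regulators of AU-rich mRNA and readouts of Janus kinase signalling. Of 12 tested genes for AU-rich mRNA binding and decay, 0 were called higher and 2 lower under compound 4, 5 higher and 0 lower under compound 5, and 0 under compound 6 by edgeR. With upper-quartile scaling the counts for compound 5 were 4 and 1. Of all genes, 6.5%, 13.9%, and 2.8% were called higher and 5.42%, 14.2%, and 1.6% lower under compounds 4, 5, and 6. ZFP36, which binds AU-rich elements and promotes decay, measured 23.5 and 19.3 CPM in control cells and 41.5 and 54.0 CPM under compound 5, a 2.24-fold difference (95% interval 1.72 to 2.92). ZFP36L1, its paralog, rose by 1.22 (SE 0.14), PAN3, a subunit of a deadenylase, by 0.53 (SE 0.13), and RC3H2, which binds stem loops in cytokine mRNAs, by 0.46 (SE 0.15). The 2 genes called lower under compound 4 were ELAVL1, at -0.38 (SE 0.10), and HNRNPD, at -0.37 (SE 0.10), named after their values were seen.

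Of 18 tested readouts of Janus kinase and STAT3 signalling, 3 were called higher and 3 lower under compound 4, 6 and 1 under compound 5, and 2 and 1 under compound 6, against the same shares of all genes. With upper-quartile scaling the counts for compound 5 were 5 and 2. PIM1, a kinase induced by STAT factors, rose by 1.13 (SE 0.11), 1.76 (SE 0.12), and 0.86 (SE 0.11) under compounds 4, 5, and 6. HAMP, the iron hormone hepcidin, rose 2.61-fold (95% interval 2.00 to 3.41), 2.83-fold (2.17 to 3.70), and 2.90-fold (2.22 to 3.78). HP, the acute-phase protein haptoglobin, fell by 1.49 (SE 0.19), 1.30 (SE 0.19), and 0.86 (SE 0.18), and it has a near-identical relative, HPR, with which reads may be divided. CEBPB, a transcription factor of the acute phase, rose by 1.31 (SE 0.28) under compound 5, where its replicates measured 112 and 218 CPM.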
